A study of Macaca fascicularis and Macaca mulatta and Papio anubis with 20 samples.

Results

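NRG1, ERBB2 and ERBB3, the genes of neuregulin 1 and of the receptor pair through which it acts on Schwann cells, were followed across spatial transcriptomes of the primate dorsal root ganglion. They were picked by symbol and make up 3 of the 22000 features counted in *Macaca fascicularis*. Their feature identifiers there are ENSMFAG00000002201 for NRG1, ENSMFAG00000041598 for ERBB2 and ENSMFAG00000040171 for ERBB3. A dorsal root ganglion holds the cell bodies of sensory neurons and the myelinated and unmyelinated axons that leave them. In the Visium assay a section is laid over barcoded capture spots, and a unique molecular identifier (UMI) on each captured transcript keeps it from being counted again. Because a spot can hold several cells, a high value in it means either more cells of a type or more RNA per cell, and these cannot be told apart.

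Of 20 sections, 16 were labelled *M. fascicularis*. They fell into 4 groups of 4 sections: female batch 1, male batch 1, female batch 2 and male batch 2, each under its own title code and taken here as 1 specimen. Another 2 sections were labelled *M. mulatta* and 2 *Papio anubis*, all in batch 2, with no sex given and 1 title code each. No group was treated or altered, every ganglion was bought fresh frozen, and sections of 10 µm lay 100 µm apart with at least 2 per ganglion. No age is given, and nothing states that title codes are separate animals. P-values over specimens therefore speak for these specimens only, and edgeR estimated each gene's spread partly from the other features. The labels do not say which sections of a code share a ganglion.

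Neuregulin 1 is an EGF-domain growth factor made by sensory and motor neurons. Its membrane-bound type III form on the axon surface signals to Schwann cells and is known to set whether an axon is myelinated and how thick its sheath becomes. On the glial side ERBB3 binds the ligand but has little kinase activity of its own, and ERBB2 binds no known ligand but supplies the kinase, so signalling needs the heterodimer. The counts used here do not separate the NRG1 isoforms.

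Depth in the *M. fascicularis* sections ran from 1136433 to 7073134 UMIs over 596 to 2587 tissue spots, with a median of 398 to 5145 UMIs per spot. Markers of neurons, summed over the 14 of 16 listed genes measured, took 24155 to 39820 CPM of a section, where CPM is the number of UMIs of a gene or list per 1000000 UMIs. Markers of myelin, 15 of 17 measured, took 1962 to 9327 CPM, so both sides of the axon-glia contact were captured. In the 15 sections whose spots were analysed, NRG1 had a UMI in 6.13% to 42.4% of tissue spots, ERBB2 in 2.26% to 19.3% and ERBB3 in 0.19% to 4.63%. In spots off the tissue the shares were 0.29% to 4.18% for NRG1, 0% to 0.74% for ERBB2 and 0% to 0.95% for ERBB3. In CPM of the off-tissue UMIs, ERBB3 was higher off the tissue than on it in 8 of 8 batch 1 sections, with medians of 20.9 and 7.32 CPM, and in 1 of 7 batch 2 sections. NRG1 was higher off the tissue in 4 of 8 batch 1 sections (medians of 155.7 off and 160.8 on the tissue) and in 2 of 7 batch 2 sections, and ERBB2 in 1 of 8 and 3 of 7. Transcripts of all 3 genes were thus also captured beside the tissue, and their part in the levels of tissue spots was not tested.

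NRG1 was detected in every *M. fascicularis* section and varied widely within batch 1. The 4 female batch 1 sections measured 91.3, 104.6, 298.9 and 197.3 CPM, and the 4 male batch 1 sections 90.0, 124.3, 231.6 and 305.5 CPM. In batch 2 the female sections measured 119.5, 168.1, 205.5 and 138.1 CPM and the male sections 77.7, 68.8, 63.2 and 90.6 CPM. Sections 3 and 4 of both batch 1 specimens stood above their sections 1 and 2, the male batch 2 sections were low, and the male batch 2 sections all lay below the female ones, as they did for 8.5% of features. By group mean the order was male batch 1 (188 ± 98.9 CPM, SD, n = 4 sections), female batch 1 (173 ± 96.3), female batch 2 (158 ± 37.6) and male batch 2 (75.1 ± 12.0). The first 3 differed from each other by less than their spread.

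ERBB2 followed another order. Its sections measured 34.2, 33.5, 49.5 and 53.7 CPM in female batch 1 and 45.8, 50.8, 46.5 and 38.6 CPM in male batch 1. Female batch 2 sections measured 13.2, 19.1, 12.1 and 15.4 CPM and male batch 2 sections 35.1, 39.4, 37.5 and 20.2 CPM. The 4 female batch 2 sections were the lowest of the 16, below every section of the other groups, as they were for 7.42% of 17322 features. The order of means was male batch 1 (45.4 ± 5.06 CPM, SD, n = 4), female batch 1 (42.7 ± 10.4), male batch 2 (33.1 ± 8.73) and female batch 2 (15 ± 3.08), and neighbours among the first 3 differed by less than the larger SD.

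ERBB3, the ligand-binding receptor subunit, was counted 5 to 82 times per section. It measured 5.59, 3.74, 12.2 and 10.7 CPM in female batch 1, 4.69, 5.58, 11.0 and 9.05 CPM in male batch 1, 2.79, 0.89, 1.69 and 2.15 CPM in female batch 2, and 5.28, 6.83, 5.43 and 6.16 CPM in male batch 2. As for ERBB2, all 4 female batch 2 sections lay below the other 12. Group means were 8.06 ± 4.03 CPM in female batch 1, 7.59 ± 2.97 in male batch 1, 5.92 ± 0.71 in male batch 2 and 1.88 ± 0.80 in female batch 2 (SD, n = 4), of which the first 3 overlapped.

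None of the 3 genes passed the test between batches or between sexes. Counts were summed per specimen, so each test set 2 specimens against 2, with edgeR's quasi-likelihood test and Benjamini-Hochberg adjustment over 12650 features. Between batches 364 features, 2.88% of those tested, were called, a count that ranged from 115 without section 1 of male batch 2 to 942 without section 4 of female batch 1. The log2 difference of batch 2 minus batch 1 was -0.81 for NRG1 (SE 0.31, adjusted p = 0.217), -0.84 for ERBB2 (SE 0.29, adjusted p = 0.175) and -1.23 for ERBB3 (SE 0.52, adjusted p = 0.25) in that edgeR fit. With no filter on low counts NRG1 (adjusted p = 0.0231) and ERBB2 (adjusted p = 0.0230) passed in edgeR. Summed myelin markers ranged from 3348 to 9327 CPM in batch 1 and from 1962 to 4143 CPM in batch 2, and fibroblast markers from 3135 to 7145 CPM and from 1240 to 3407 CPM; 2 of 14 tested myelin and 5 of 8 tested fibroblast genes fell. Within *M. fascicularis* the processing software version, where known, also goes with the batch, and the part of either in these differences was not tested. Between sexes 0 features (0%) were called by edgeR and 0 by DESeq2, with 169 and 179 at an unadjusted p under 0.05. The log2 difference of female minus male was 0.61 for NRG1 (SE 0.31), -0.50 for ERBB2 (SE 0.29) and -0.58 for ERBB3 (SE 0.51), each with an edgeR adjusted p of 0.998.

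**Figure D1:**
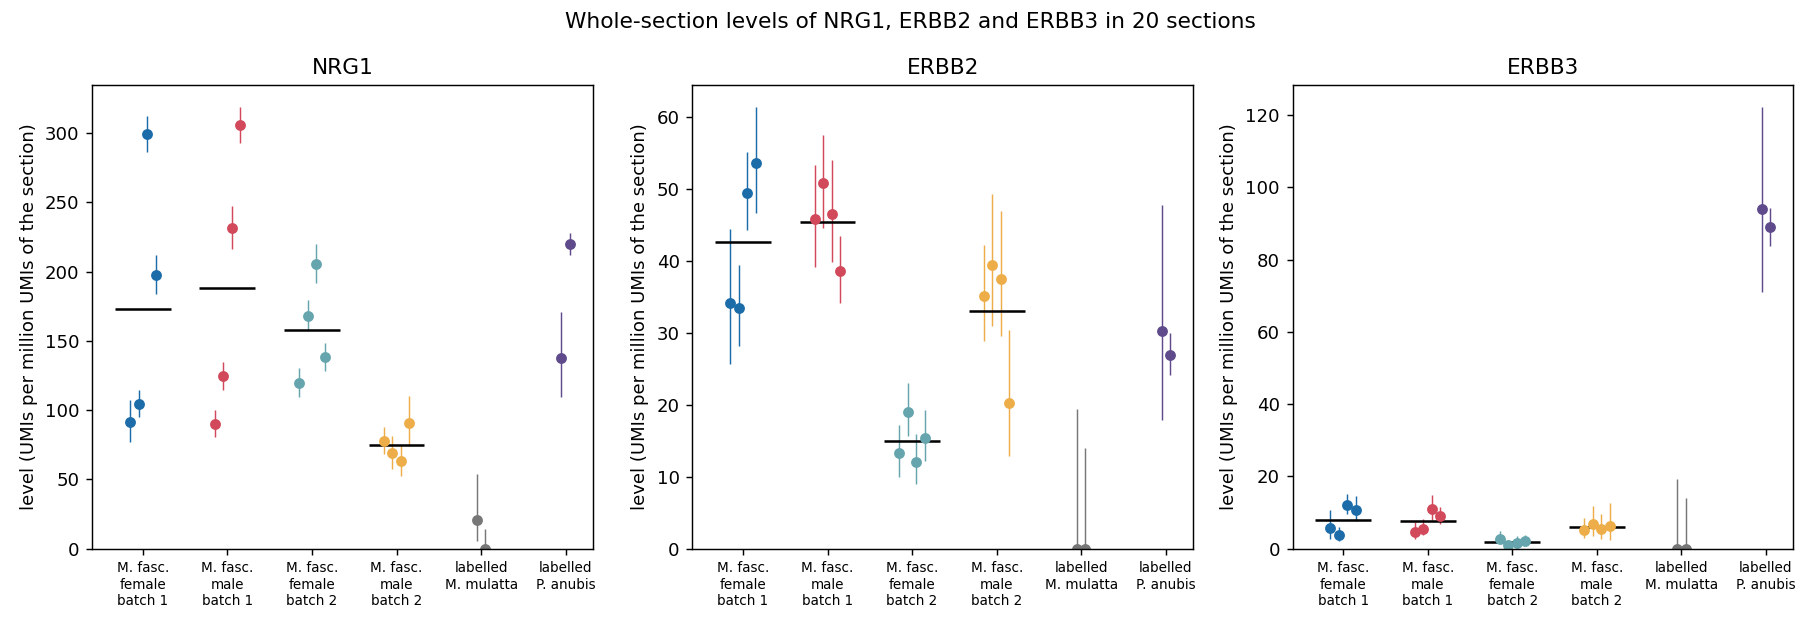
Levels of NRG1, ERBB2 and ERBB3 in each section, in CPM, by group, with 1 point per section, its 95% exact Poisson interval as a thin line and the *M. fascicularis* group means as black bars. NRG1 spreads from 90.0 to 305.5 CPM within male batch 1, and the 4 female batch 2 sections hold the lowest ERBB2 and ERBB3 values among the *M. fascicularis* sections.

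In batch 1 the second pair of sections differed from the first in both specimens, a pattern noticed in the values. Sections 3 and 4 held 197 to 306 CPM of NRG1 and sections 1 and 2 held 90.0 to 124 CPM. ERBB3 moved the same way, at 9.05 to 12.2 against 3.74 to 5.59 CPM, whereas ERBB2 overlapped at 38.6 to 53.7 and 33.5 to 50.8 CPM. Of 16520 features, 6.34% had sections 3 and 4 all above sections 1 and 2 and 7.63% had them all below, so such a split is shared by many genes. NRG1 was split the same way within the neuron-high spots described below (283 to 477 against 117 to 194 CPM) and the remaining spots (117 to 190 against 64.9 to 75.4 CPM) and overlapped in myelin-high spots (49.8 to 121 and 30.8 to 51.9 CPM). The summed neuron markers overlapped at 32504 to 39106 and 25770 to 33013 CPM, and their part in the split was not tested.

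The sections of the other labelled species differed in depth and in annotation. Features of the *M. mulatta*-labelled sections start with ENSPANG, Ensembl's code for *P. anubis*, whereas the *P. anubis*-labelled sections have ENSMMUG, its code for *M. mulatta*, so labels and files may be crossed and no test between species was made. The *M. mulatta*-labelled sections held 190376 and 264661 UMIs. They gave 4 and 0 UMIs of NRG1 and none of ERBB2 or ERBB3, and 3 counts would have been 15.8 and 11.3 CPM. ERBB3 lay under both limits in all but 1 of the *M. fascicularis* sections, so its level here was not detectable at this depth.

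In the *P. anubis*-labelled sections, with 595020 and 12595205 UMIs, NRG1 stood at 137.8 and 219.8 CPM and ERBB2 at 30.3 and 26.9 CPM, inside the range of the *M. fascicularis* sections. ERBB3 stood apart at 94.1 CPM (56 UMIs, 95% exact Poisson interval 71.1 to 122, counting error only) and 88.9 CPM (1120 UMIs, 83.8 to 94.3). The highest *M. fascicularis* section was at 12.2 CPM. Counted over the 13089 symbols that all the feature sets share, ERBB3 was at 171 and 165 CPM against 1.45 to 18.5 CPM. This is 1 title code with its own annotation, and the part of the annotation in the gap was not tested. In its deeper section ERBB3 had a UMI in 28.7% of tissue spots and in 1.15% of spots off the tissue.

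The authors' deposited table gives Moran's I for each gene and section, a score that is above 0 where neighbouring spots are alike. NRG1 was spatially patterned in most sections, with the authors' adjusted p under 0.05 in 12 of 16 *M. fascicularis* sections, 7 of 8 in batch 1 and 5 of 8 in batch 2. A median of 16.4% of all genes, 5.42% to 40.6% by section, passed in the same table. In the authors' deposited table NRG1 scored 0.00236, 0.186, 0.127 and 0.0701 in female batch 1 and 0.0730, 0.0473, 0.14 and 0.137 in male batch 1. It scored 0.00739, 0.0320, 0.0219 and 0.0270 in female batch 2 and 0.0832, 0.00158, 0.0207 and 0.00260 in male batch 2, per the same authors' deposited table. The 4 scores of at least 0.1 were all from batch 1, and the best rank was 207 of 14475 genes, in section 3 of female batch 1.

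The receptor genes rarely passed. In the authors' deposited table ERBB2 passed in 1 of 16 sections, section 2 of female batch 1, where 40.6% of all genes passed. ERBB3 also passed in 1 of 16, section 1 of male batch 1, at a score of 0.0383 where 16.8% of genes passed. In the deeper *P. anubis*-labelled section NRG1 scored 0.155 in the authors' deposited table and ranked 174 of 15449 genes. It scored -0.00096 in the shallow one.

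**Figure D2:**
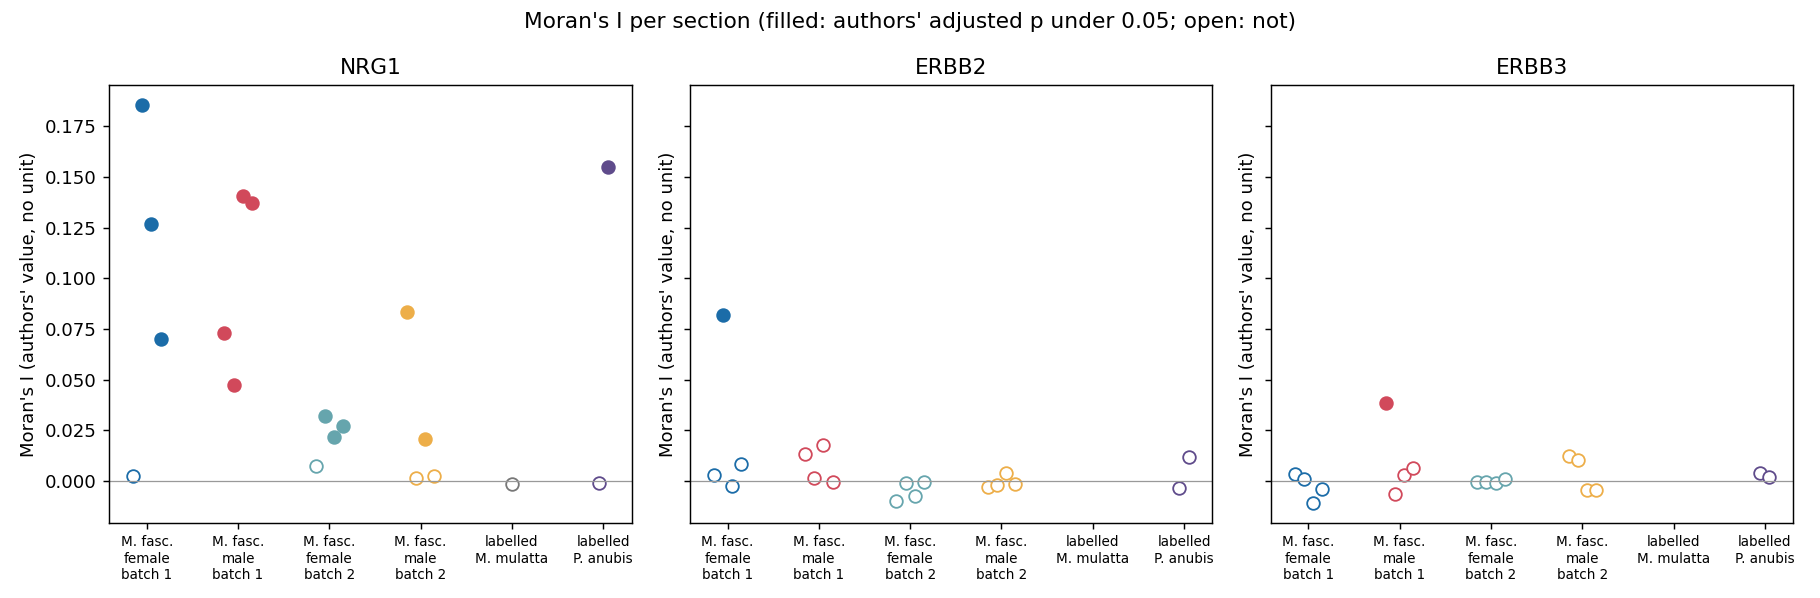
Moran's I of NRG1, ERBB2 and ERBB3 in each section, as deposited by the authors, with 1 point per section by group and filled points where the authors' adjusted p is under 0.05. NRG1 passes in 12 of 16 *M. fascicularis* sections and reaches 0.186, and ERBB2 and ERBB3 pass in 1 of 16 each.

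To see which tissue regions carry the ligand and the receptors, spots were classed by transcripts of genes other than these 3. Within each section, spots of at least 200 UMIs were called neuron-high if the share of UMIs from the neuron marker list was in the upper 25% and the myelin share was not. Myelin-high spots were the reverse, spots in both were dropped, and all others formed the remaining spots. This gave 4430 neuron-high, 4430 myelin-high and 9516 remaining spots over 15 sections, which were summed per specimen. The comparisons below share these classes and are not independent of each other. Neuron-high spots were also deep, with a median over sections of 5027 UMIs per spot against 1453 in remaining and 592 in myelin-high spots.

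NRG1 was concentrated in neuron-high spots as classed with the neurofilament genes in the neuron list. In the female batch 1, male batch 1, female batch 2 and male batch 2 specimens it measured 312, 321, 219 and 115 CPM in neuron-high spots, 126, 111, 85.1 and 63.2 CPM in remaining spots and 76.7, 71.2, 72.2 and 45.6 CPM in myelin-high spots. Each specimen had the same order, and neuron-high spots exceeded remaining spots in 15 of 15 sections. Over sections the lowest, median and highest values were 113, 194 and 477 CPM in neuron-high, 45.3, 80.2 and 190 CPM in remaining and 30.8, 51.9 and 121 CPM in myelin-high spots. Neuron-high spots held 40.6% to 80.3% of a section's NRG1 UMIs (median 67.1%) and 28.3% to 60.1% of all its UMIs (median 45.9%).

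The log2 difference of neuron-high minus remaining spots was 1.39 for NRG1 (SE 0.11, edgeR adjusted p = 7.12e-09, 4 specimens), in a comparison that called 28.7% of 12018 features. Neuron-high minus myelin-high was 1.93 (SE 0.14, edgeR adjusted p = 3.38e-10), where 47.6% of features were called. This first result rests on which genes define a neuron-high spot. With the neurofilament genes left out of the neuron list the log2 difference to remaining spots was -0.01 (adjusted p = 0.97 in edgeR), whereas that to myelin-high spots was 1.32. Of the 14 tested genes of the neuron list itself, 7 were higher in neuron-high than remaining spots and 0 lower. Their median log2 difference was 0.22, beside -0.03 over all features. Neuron-high spots were rich in large-fibre transcripts: 6 of 7 tested genes of the large-fibre list were higher there (median 1.15) and 4 of 8 small-fibre genes lower. NEFH of the large-fibre list and PRPH of the small-fibre list are also in the neuron list, so their place there was set by the classing.

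Myelin-high minus remaining spots was -0.54 for NRG1 (SE 0.15, edgeR adjusted p = 0.00703), in a comparison that called 30.5% of features. This lower level did not hold once spots were thinned to 200 UMIs each after classing, a setting chosen after seeing the data (-0.05, adjusted p = 0.933 in edgeR). It also missed the threshold without the female batch 1 specimen (-0.44, adjusted p = 0.119 in edgeR) and without the male batch 1 specimen (-0.46, adjusted p = 0.0737 in edgeR). With that thinning the neuron-high excess over remaining spots was 1.32 and over myelin-high spots 1.37.

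**Figure D3:**
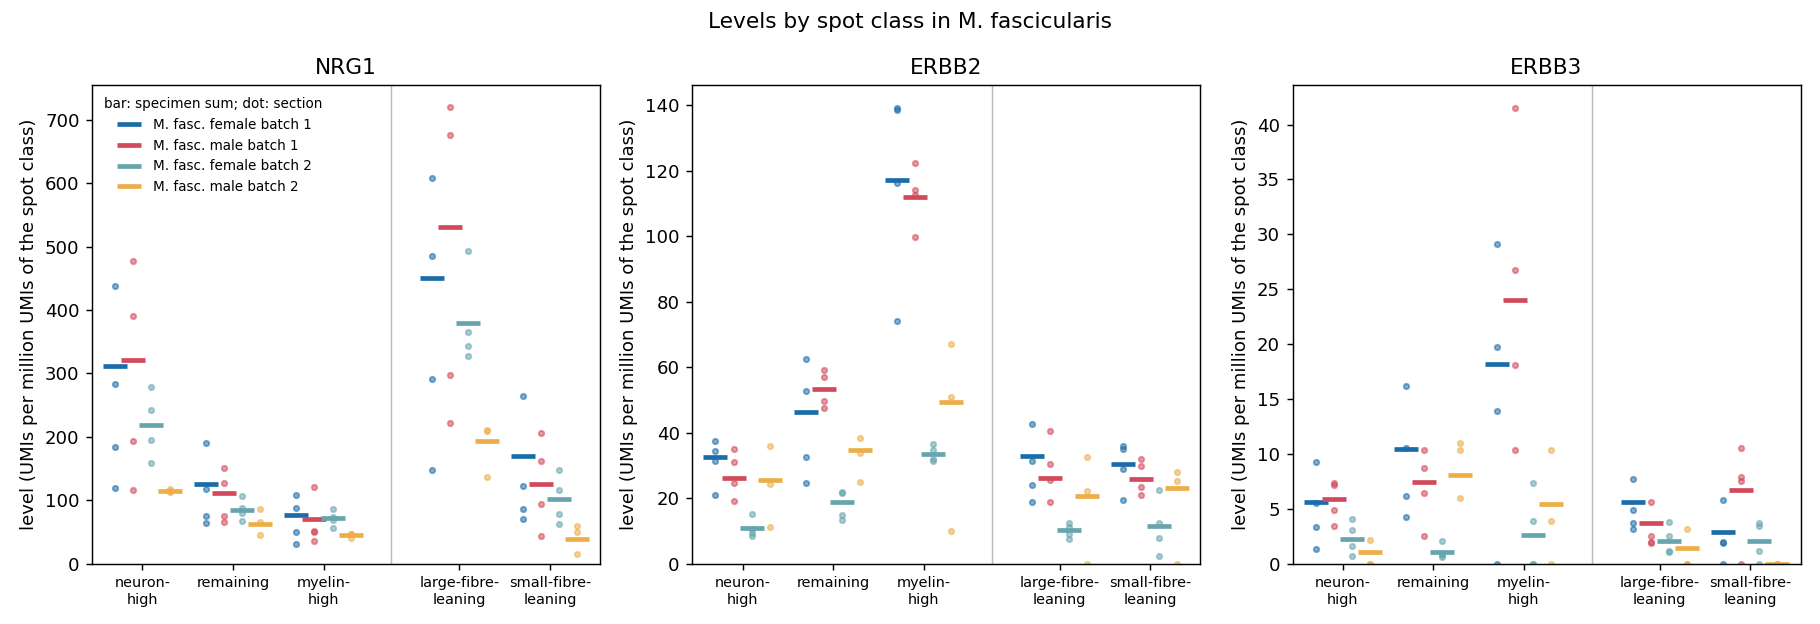
Levels of NRG1, ERBB2 and ERBB3 in CPM in neuron-high, remaining and myelin-high spots, and in large- and small-fibre-leaning spots, with a bar for the sum over each *M. fascicularis* specimen and a dot per section. NRG1 falls from neuron-high to myelin-high spots in all 4 specimens and ERBB2 climbs in all 4, while ERBB3 has no common order.

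Among neuron-high spots, NRG1 was highest where large-fibre genes dominated. Spots were ranked by the ratio of large-fibre transcripts (such as PVALB and NTRK3 of proprioceptors and NEFH of thick myelinated axons) to small-fibre transcripts (such as SCN10A, CALCA and TRPV1 of nociceptors), and the upper and lower 1 of every 3 were compared, 1473 spots each. In the same order of specimens, NRG1 measured 451, 530, 380 and 194 CPM in large-fibre-leaning and 171, 126, 102 and 39.8 CPM in small-fibre-leaning spots. Large-fibre-leaning spots were higher in 15 of 15 sections, although the 2 ranges overlapped over sections (137 to 719 and 15.2 to 264 CPM). The log2 difference was 1.89 (SE 0.078, edgeR adjusted p = 1.47e-44), where 30.1% of 10282 features were called. Over sections the medians of depth were 4996 and 5512 UMIs per spot, but within a section large-fibre-leaning spots ran from 0.577 to 2.78 times the depth of small-fibre-leaning spots and were deeper in 7 of 15. The difference was 1.56 after thinning the classed spots to 200 UMIs. When spots were thinned before they were classed it was 0.76 and missed the threshold (adjusted p = 0.18 in edgeR).

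ERBB2, the kinase subunit of the receptor, had the opposite distribution. In the same order of specimens it measured 32.7, 26.2, 11.0 and 25.4 CPM in neuron-high, 46.2, 53.4, 18.7 and 34.8 CPM in remaining and 117, 112, 33.5 and 49.3 CPM in myelin-high spots. Each specimen climbed from neuron-high to myelin-high spots, and myelin-high exceeded remaining spots in 14 of 15 sections. Over sections the medians were 24.3, 33.9 and 74.2 CPM, with ranges of 8.47 to 37.5, 13.5 to 62.4 and 10.1 to 139 CPM that overlapped. In edgeR the log2 difference of myelin-high minus remaining spots was 1.06 (SE 0.14, adjusted p = 6.49e-06), of neuron-high minus remaining -0.64 (SE 0.12, adjusted p = 0.000387) and of neuron-high minus myelin-high -1.70 (SE 0.15, adjusted p = 6.42e-09). After thinning the classed spots these were 0.85, -1.27 and -2.11.

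Myelin-high spots held 4.55% to 27.8% of a section's ERBB2 UMIs (median 13.5%) and 3.20% to 12.6% of all UMIs (median 5.60%), so most ERBB2 UMIs lay outside them. They were also rich in connective tissue: fibroblast markers had a median of 10088 CPM there against 3850 in remaining and 2257 in neuron-high spots, and perineurial markers 856, 421 and 271 CPM. Of the fibroblast genes tested, 6 of 8 were higher in myelin-high than remaining spots, and 3 of 6 perineurial genes. ERBB2 is also expressed by cells other than Schwann cells, and the part of these cells in the ERBB2 difference was not tested. ERBB2 was not shown to differ between large-fibre-leaning (32.8, 26.2, 10.3 and 20.8 CPM) and small-fibre-leaning spots (30.4, 26.0, 11.5 and 23.2 CPM), at a log2 difference of 0.07 (SE 0.16, edgeR adjusted p = 0.806).

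ERBB3 was too sparse for a firm order. The specimens held 18, 27, 2 and 3 UMIs in their myelin-high spots, or 18.2, 24.0, 2.58 and 5.48 CPM. In neuron-high spots it measured 5.65, 5.91, 2.30 and 1.08 CPM and in remaining spots 10.5, 7.42, 1.04 and 8.10 CPM. Myelin-high spots were the highest class in 3 specimens and below remaining spots in male batch 2, and over sections 4 of 15 had no ERBB3 UMI in them. The myelin-high values of the specimens lay within the ERBB3 range off the tissue, 9.08 to 41.8 CPM over batch 1 sections and 0 to 7.66 CPM over batch 2 sections. The part of transcripts captured beside the tissue in this order was not tested.

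The log2 difference of myelin-high minus remaining spots was 1.07 for ERBB3 (SE 0.36, edgeR adjusted p = 0.0279). Its call was lost without the male batch 1 specimen (0.63, adjusted p = 0.438), without the female batch 1 specimen (1.23, adjusted p = 0.101), without section 3 or section 4 of male batch 1 alone (0.92 and 1.00, adjusted p = 0.0740 and 0.0631) and with DESeq2 (0.95, adjusted p = 0.127). Neuron-high minus myelin-high was -1.52 (SE 0.38, edgeR adjusted p = 0.00239), which was -1.21 without the male batch 1 specimen (adjusted p = 0.0904). Neuron-high minus remaining was -0.45 (SE 0.27, edgeR adjusted p = 0.226), and large-fibre-leaning minus small-fibre-leaning 0.03 (SE 0.41, edgeR adjusted p = 0.969).

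These contrasts were not shown to differ between batches or sexes. None of 24 interaction terms, 4 contrasts by 2 factors for 3 genes, passed in edgeR. The lowest adjusted p was 0.199, for a neuron-high minus myelin-high difference of NRG1 that was lower by a log2 value of -0.66 in batch 2 than in batch 1 (SE 0.25, edgeR), where 1.58% of features were called. The *P. anubis*-labelled sections, classed by the same rule but with partly different genes, had their own values of the same kind. There 16 of 16 neuron and 16 of 17 myelin genes matched. Unlike in *M. fascicularis*, NEFM, UCHL1, MBP, PLLP and, in the large-fibre list, CPLX1 counted toward the classes, and MAG did not. In the deeper one NRG1 measured 323, 102 and 89.6 CPM in neuron-high, remaining and myelin-high spots and 511 and 145 CPM in large- and small-fibre-leaning spots, ERBB2 19.4, 33.6 and 55.3 CPM and ERBB3 84.8, 90.5 and 122 CPM. The ERBB3 values rest on 572, 479 and 64 UMIs, in 1 section without a test. In the shallow one NRG1 measured 317, 86.9 and 110 CPM, ERBB2 17.6, 30.7 and 18.3 CPM and ERBB3 61.6, 76.7 and 110 CPM. Its myelin-high values rest on 6, 1 and 6 UMIs, and ERBB2 there did not have the order of the deeper section.

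The levels were graded over the spots of a section. Spots of each section were split into 5 equal bins by the share of neuron-list UMIs, and mean NRG1 over 15 sections went from 53.0 CPM in the lowest bin through 76.1, 87.7 and 115 to 247 CPM in the highest. ERBB2 went from 90.0 through 54.8, 37.9 and 30.7 to 22.1 CPM and ERBB3 from 14.5 through 9.39, 5.49 and 5.85 to 3.55 CPM. NRG1 and ERBB2 thus changed at each step in opposite directions, and NRG1 most at the last step.

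Over bins of the myelin-list share NRG1 went from 201 through 157, 119 and 94.5 to 63.0 CPM. ERBB2 went from 24.0 through 31, 39.5 and 55.1 to 82.8 CPM and ERBB3 from 2.68 through 6.13, 7.39 and 8.84 to 12.7 CPM. These directions were not particular to myelin. Over bins of the fibroblast list ERBB2 went from 27.8 through 28.6, 40.1 and 53.7 to 67.8 CPM. ERBB3 went from 3.60 through 4.78, 8.22 and 8.37 to 9.05 CPM there, and NRG1 from 168 through 161, 148 and 117 to 90.4 CPM. The receptors had no steady course with satellite glia, the cells that wrap the neuron bodies, and were lower in the middle bins. From the lowest to the highest bin of the satellite list ERBB2 went from 45.1 through 29.9, 30.7 and 34.6 to 39.4 CPM. ERBB3 went from 6.74 through 5.40, 5.30 and 5.32 to 8.74 CPM, and NRG1 from 190 to 131 CPM. Over bins of the list for non-myelinating Schwann cells, which hold bundles of thin axons, ERBB2 went from 66.1 to 28.6 CPM.

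Distance from spots high in the same neuron list gave the same order for NRG1 and ERBB2. Steps were counted from every spot in the upper 25% of the neuron-list share, here with the 218 spots that were high in both lists. In these spots NRG1 had a mean of 228 CPM over sections, in spots 1 step away 96.8 CPM, then 81.5, 72.6 and, at 4 or more steps, 48.9 CPM. ERBB2 went from 23.6 through 35.5, 45.2 and 56.8 to 77.1 CPM over the same rings, and ERBB3 from 3.71 through 5.99, 8.70 and 6.09 to 11.8 CPM. The NRG1 step between these spots and their neighbours was larger than any later one. Depth fell over the same rings, with medians over sections of 4923, 1910, 1173.5, 879 and 681.5 UMIs per spot. Neither the neuron bins nor the rings were recomputed without the neurofilament genes, so they do not stand apart from the class comparison.

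**Figure D4:**
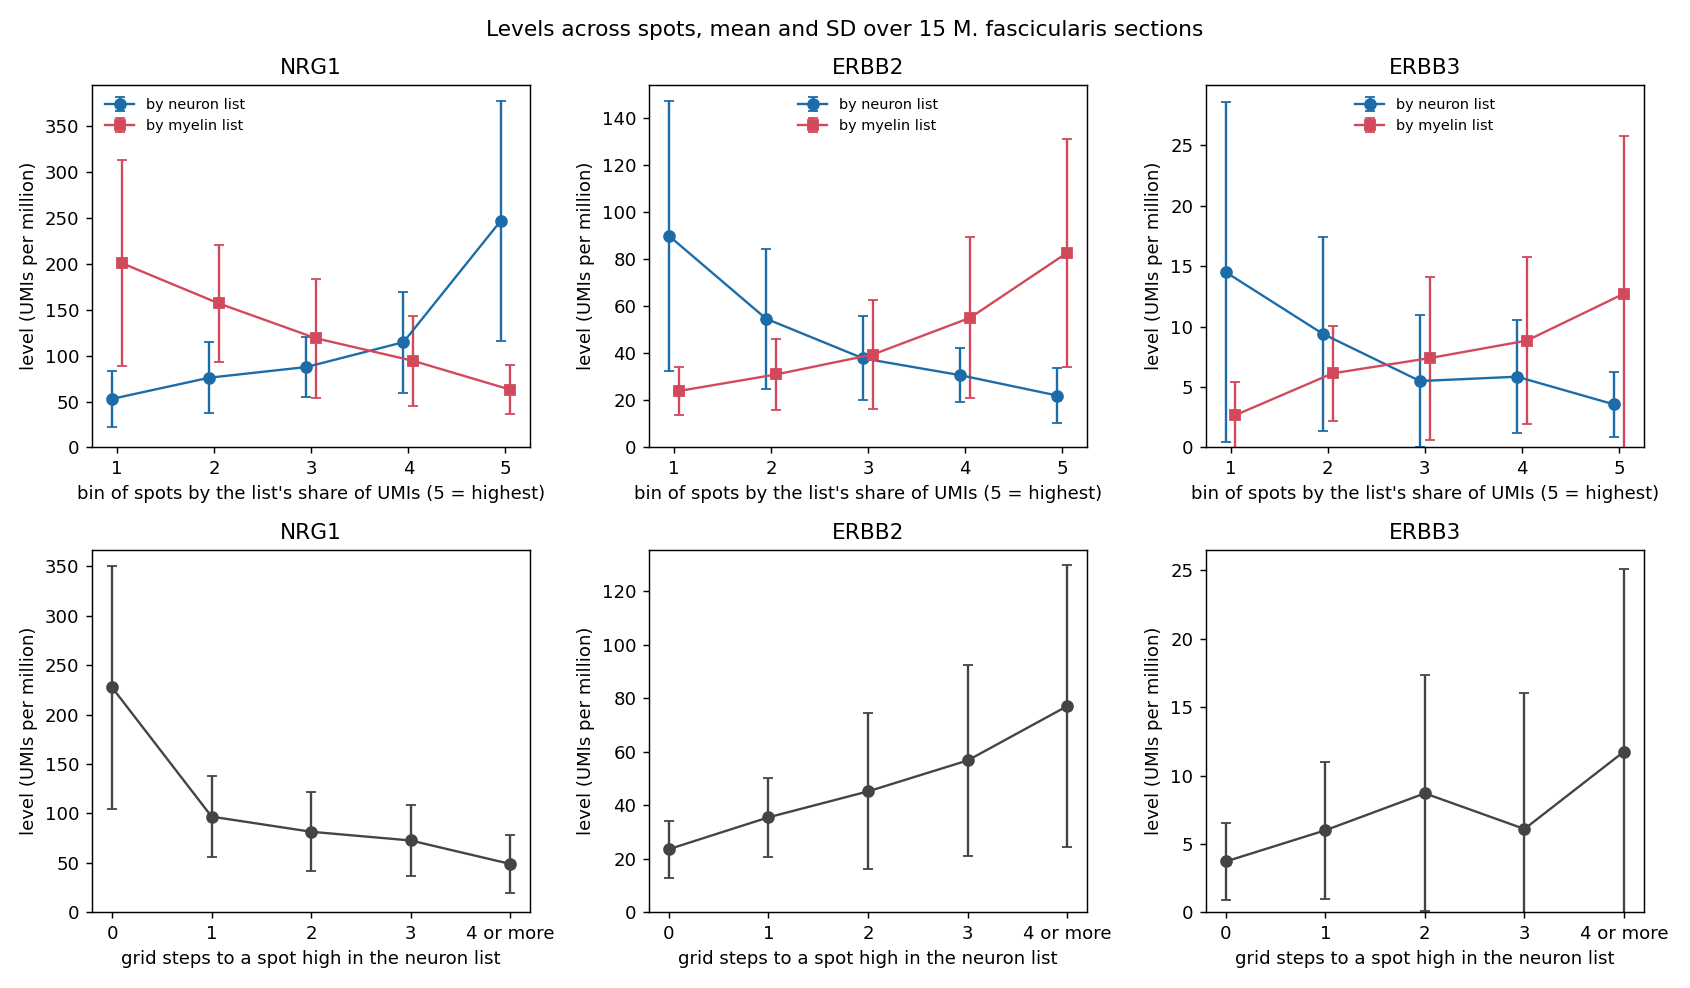
Mean level of NRG1, ERBB2 and ERBB3, in CPM over 15 *M. fascicularis* sections, by the 5 bins of the neuron-list and myelin-list share and by steps from the nearest spot high in the neuron list, with bars for 1 SD over sections drawn down to 0 at most. NRG1 rises from 53.0 to 247 CPM over the neuron bins while ERBB2 falls from 90.0 to 22.1 CPM.

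Spot by spot, the Spearman correlation of NRG1 with the neuron-list share had a median of 0.442 over 15 sections (0.149 to 0.529) and was above 0 in 15. With the myelin-list share its median was -0.283 (-0.447 to -0.0637), below 0 in 15 sections. Spots share depth with both measures, and with spots of at least 1000 UMIs the medians were 0.374 and -0.277. The neuron-list correlations were not recomputed without the neurofilament genes either, so they do not stand apart from the class comparison. For ERBB2 the medians were 0.0696 with the neuron list, above 0 in 13 of 15 sections, and -0.0527 with the myelin list, above 0 in 2 of 15. For ERBB3 they were 0.0419, above 0 in 11 of 15, and -0.0315, above 0 in 3 of 15. These signs go against the order of the pooled levels. With at least 1000 UMIs the ERBB2 medians were 0.0105, above 0 in 8 of 15 sections, and -0.00798, above 0 in 6 of 15. Most spots hold no UMI of either receptor, so these weak values are given as a description.

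Section 4 of male batch 1 shows the arrangement where NRG1 was highest. Of the *M. fascicularis* sections it had the highest NRG1 level (305.5 CPM) and the most UMIs (7073134). Its neuron-high spots held 477 CPM of NRG1, against a median of 194 CPM over sections. Of its 1433 spots of at least 200 UMIs, 51 held at least 10 NRG1 UMIs, with up to 34 in a spot. Of these 51 spots, 50 were neuron-high, 40 were large-fibre-leaning and none was small-fibre-leaning. A minimum in raw UMIs favours deep spots, and here the median depth was 8581 UMIs in neuron-high, 911 in myelin-high, 11401 in large-fibre-leaning and 5942 in small-fibre-leaning spots. ERBB2 was found in 234 spots, of which 57 were neuron-high and 40 myelin-high.

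**Figure D5:**
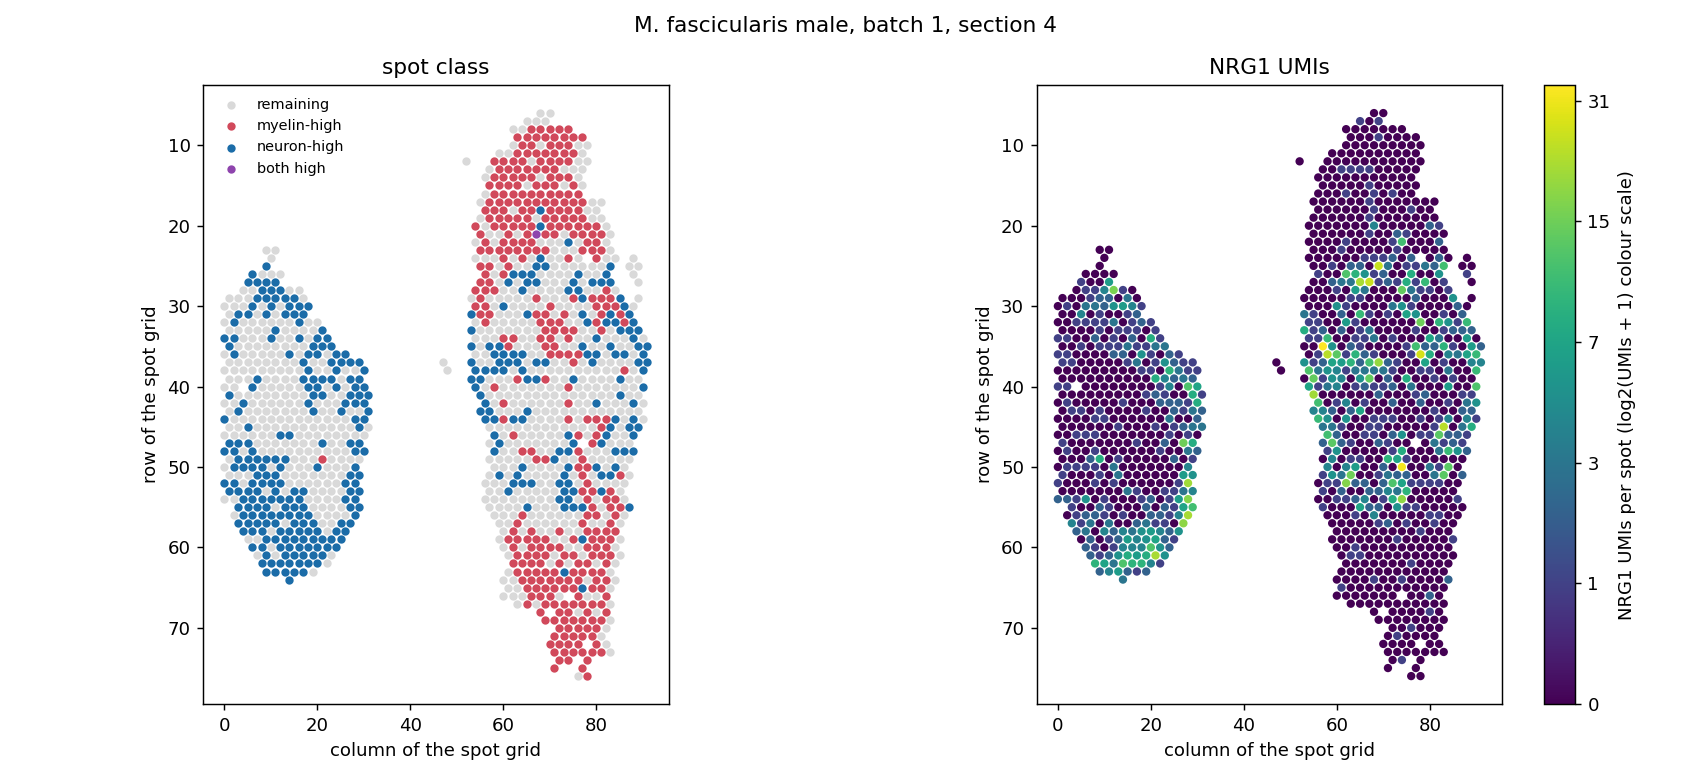
Map of section 4 of male batch 1 in array positions, with the spot classes on the left and NRG1 UMIs per spot, on a log2(UMIs + 1) colour scale, on the right. Of the 51 spots of at least 10 NRG1 UMIs, 50 are neuron-high, where the median depth is 8581 UMIs per spot against 911 in myelin-high spots.

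The genes most like NRG1 across spots were neuronal. Likeness was the Pearson correlation over tissue spots of log-scaled UMIs per 10000, averaged over 15 sections, for 5493 genes of at least 20 CPM. The leading genes were PVALB, the calcium buffer of proprioceptive neurons (0.295, 0.0733 to 0.453 by section), VSNL1, a neuronal calcium sensor (0.282), SNAP25 of the synaptic vesicle fusion machinery (0.280), SNCB, the beta-synuclein gene (0.271), and CLEC2L (0.266). Toward the other end of the order was PRX, which links the myelin sheath to the Schwann cell skeleton, at -0.147, a gene named after its value was seen. NRG1 was near 0 with its receptors, at 0.00817 with ERBB2 and 0.0141 with ERBB3. For ERBB2 the first gene was FN1 at 0.0616 and for ERBB3 KIF9 at 0.0471, too weak to call likeness.

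The rest of the pathway was described by lists of other ligands, ligand-processing proteases, signal carriers, inhibitors and glial transcription factors. Among other ligands, 3 of 9 were tested and most were barely detected: NRG3 had 14 UMIs over all 16 sections, AREG 7, BTC 5, and EREG and EGF 0. The other receptors were also nearly absent, with 36 UMIs of EGFR and 1 of ERBB4, and were not tested. In neuron-high against remaining spots 1 ligand was higher, NRG4, which binds ERBB4 (log2 1.78, SE 0.24, edgeR adjusted p = 9.38e-06), and the list median of -0.33 stood beside -0.03 over all features. With the neurofilament genes left out that NRG4 difference was 0.33 (adjusted p = 0.366 in edgeR). HBEGF, the heparin-binding ligand of EGFR and ERBB4, was higher in myelin-high than remaining spots (0.94, edgeR adjusted p = 0.000582; list median 0.60 beside -0.01). NRG4 was also higher in large- than small-fibre-leaning spots (1.82, SE 0.31, edgeR adjusted p = 6.92e-07), the only other call among ligands in these 3 contrasts. The NRG4 calls rest on a sparse gene, with 250 UMIs over all 16 sections and a mean of 3.44 CPM.

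Calls over all features were 14.4% higher and 14.3% lower in neuron-high than remaining spots, 14.9% and 15.6% in myelin-high spots, and 16.1% and 14% in large- than small-fibre-leaning spots. Of 8 tested processing genes, 1 was lower and none higher in neuron-high than remaining spots, with a median of -0.05. This was ADAM10, a membrane protease (-0.45, edgeR adjusted p = 0.00586). In myelin-high spots 3 were higher and 1 lower (median 0.15), with ADAM10 at 1.11 (edgeR adjusted p = 9.78e-07) and ADAM17, a protease that cuts NRG1 and limits myelination, at 0.53 (edgeR adjusted p = 0.0156). ADAM19 was lower there (-0.69, edgeR adjusted p = 0.00353). Between large- and small-fibre-leaning spots 1 was higher and 2 lower (median -0.14 beside 0.0045 over all features). BACE1, the protease whose cut of type III NRG1 promotes myelination, was higher with the large fibres (1.14, SE 0.26, edgeR adjusted p = 0.000199), and ADAM19 lower (-1.27, edgeR adjusted p = 4.66e-14). NRDC, a cofactor of this shedding, was at -0.25 (edgeR adjusted p = 0.0499), a call kept in 5 of 25 other settings.

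Of 18 tested signal carriers, 1 was higher and 2 lower in neuron-high spots (median -0.02). MAP2K2, a kinase of the ERK cascade, was higher (0.29, edgeR adjusted p = 0.0341), a call lost in 8 of 27 other settings. The adaptors SHC1 (-0.31, edgeR adjusted p = 0.0152) and GAB1 (-0.64, edgeR adjusted p = 0.0236) were lower, and each was lost in 5 settings. With the neurofilament genes left out SHC1 was at -0.0024 (adjusted p = 0.992 in edgeR). In myelin-high spots 4 were higher and 5 lower (median -0.00036). PIK3R1, the regulatory subunit of PI3 kinase, was higher at 1.28 (edgeR adjusted p = 8.07e-06), and the ERK1 gene MAPK3 (-1.05, edgeR adjusted p = 0.00055) and the adaptor GRB2 (-0.47, edgeR adjusted p = 0.00133) were lower. Over 27 other settings the MAPK3 call was lost in 2 and turned direction in 1, and the GRB2 call was lost in 3. With the large fibres 2 of 16 were higher and 6 lower (median -0.12), led by SHC1 (-0.85, edgeR adjusted p = 1.1e-14), HRAS (-0.42, edgeR adjusted p = 7.41e-07) and MAPK3 (-0.73, edgeR adjusted p = 1.58e-05). MAPK3 was also the single pathway gene called between batches, higher in batch 2 by 3.39 (SE 0.37, edgeR adjusted p = 0.00567).

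Of 9 inhibitors, none was higher and 4 were lower in neuron-high spots (median -0.41), among them the kinase inhibitor ERRFI1 (-0.46, edgeR adjusted p = 0.0012), LRIG1, which promotes receptor turnover (-0.65, edgeR adjusted p = 0.00239), and DLG1, a scaffold that restrains myelin growth (-0.76, edgeR adjusted p = 0.00315). With the neurofilament genes left out ERRFI1 was at -0.057 (adjusted p = 0.721 in edgeR). In myelin-high spots 3 were higher and 1 lower (median 0.42), with DLG1 at 1.07 (edgeR adjusted p = 0.00123), the ERK pathway antagonist SPRY2 at 0.54 (edgeR adjusted p = 0.00606) and the ERBB2-binding ERBIN at 0.54 (edgeR adjusted p = 0.00655). With the large fibres 2 were lower (median -0.08), RNF41, a ubiquitin ligase for ERBB3 (-0.36, edgeR adjusted p = 0.0114), and ERRFI1 (-0.38, edgeR adjusted p = 0.0176). Over 25 other settings this RNF41 call was lost in 5, and the ERRFI1 call was lost in 7 and turned direction in 1.

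The glial transcription factors went with myelin. In myelin-high spots 4 of 5 tested were higher and none lower (median 0.90), with EGR2, the master regulator of myelin genes, at 2.32 (SE 0.17, edgeR adjusted p = 9.63e-10), the Hippo pathway effector YAP1 at 1.12 (edgeR adjusted p = 1.46e-06) and SOX10, the lineage factor of Schwann cells, at 0.90 (edgeR adjusted p = 9.07e-05). In neuron-high spots 1 was lower, YAP1 (-0.64, edgeR adjusted p = 0.000176), with a list median of -0.26. With the large fibres EGR2 alone was called (0.68, edgeR adjusted p = 0.00494, list median 0.04), a call lost in 4 of 25 other settings. Of the 33 calls on named pathway genes in these comparisons, 7 held under every setting in which they were tested. These were ADAM10, EGR2 and PIK3R1 in myelin-high spots, ADAM19, NRG4 and SHC1 between the fibre classes, and MAPK3 between batches. Between the fibre classes ADAM19, NRG4 and SHC1 were not tested on thinned spots, so their calls did not face that setting. The other 26 were lost in at least 1 setting.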

How the data were processed

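Spatial RNA was measured in 20 sections of dorsal root ganglia, per the labels. UMI counts per feature and spot, and summed per section, were deposited by the authors. Space Ranger 2.0.0 made 12 of them and 2.1.0 made 7, per the file headers. The submitters' processing notes name Mmul_10 with no role. Moran's I, a score per gene and section, and its p-value were deposited by the authors and only described. Table and matrix sums differed for 0 features. Section 3 of male batch 2 entered through its table alone. The MBP, PLLP, UCHL1 and NEFM symbols had no match among the *M. fascicularis* features and entered the lists only in the other labelled sections.

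CPM, spot classes, bins and ring distances were computed with Python 3.11.15, numpy 2.4.6, pandas 2.3.3 and scipy 1.17.1. Counts summed per specimen were tested over all features with edgeR 4.0.16 in R 4.3.3 (filterByExpr, TMM, quasi-likelihood), with sex and batch, or the specimen, as terms. Calls had a Benjamini-Hochberg adjusted p under 0.05. DESeq2 1.42.0 was an alternative, beside the filter, the spot minimum (1000 UMIs), the upper 10% of spots, thinning to 200 UMIs, the marker list and each specimen or section left out. Scripts were tested on simulated data. Section pairs of a group had a chi-square of at least 3.93 per degree of freedom (24 pairs), so none repeated another.

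The members and lists were chosen with earlier results of these data known. Named were the 3 members, up to 3 called genes of smallest adjusted p per pathway list and contrast, and up to 5 genes most like a member.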

Additional observations from a re-analysis of the deposited data

Results flagged for a closer look

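Of 57 sets of 4 sections examined for a value far from the others, 1 stood apart: ERBB3 in the large-fibre-leaning spots of section 4 of male batch 1, at 5.62 CPM against 1.93 to 2.53 CPM in the other sections of that specimen. Chance gives about 1 in 20 sets. The counts behind it are few, and its part in any result was not tested.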

How the results depend on the processing

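Of 155 recomputed tests on NRG1, ERBB2 and ERBB3 under other settings, 131 kept direction and call, 11 lost the call, 7 gained it and 6 turned direction; of 275 that left out 1 section, 268 kept both. For batch 2 minus batch 1, no filter gave -0.82 for NRG1 and -0.86 for ERBB2, both called. With sections as samples and no block ERBB2 was at -0.86 and ERBB3 at -1.14, and with section number as replicate block at -0.85 and -1.02, all called. Fits with sections as samples treat sections of 1 title code as independent specimens. Their calls therefore cannot stand for a difference between batches. Section numbers were not taken as a pairing: correlations of deviations were -0.164 to 0.450 over 24 same-number pairs, although the 4 pairs within batch 1 were all above 0 (0.203 to 0.450). Without neurofilament genes NRG1, neuron-high minus remaining, was -0.0081 and ERBB2, large- minus small-fibre-leaning, -0.23. In the upper 10% of spots ERBB3 was -0.80 for neuron-high minus remaining (called) and 1.00 for myelin-high minus remaining (not called). Thinning to 200 UMIs gave NRG1 -0.45 for myelin-high minus remaining and 0.76 for the fibre classes, and thinning after classing -0.050 for the first. Without female batch 1 NRG1 was -0.44 and ERBB3 1.23 for myelin-high minus remaining, and ERBB2 -0.0016 and ERBB3 -0.41 between fibre classes. Without male batch 1 NRG1 was -0.46 and ERBB3 0.63 for myelin-high minus remaining, and ERBB3 -1.21 for neuron-high minus myelin-high. Without male batch 2 ERBB3 was -0.018 between fibre classes. DESeq2 gave ERBB3 0.95 and a minimum of 1000 UMIs 0.78 for myelin-high minus remaining, neither called. That minimum gave ERBB3 -0.11 between fibre classes and moved the ERBB2 medians of Spearman's rho to 0.0105 (neuron) and -0.00798 (myelin). Leaving out 1 section gave 0.92 to 1.15 for ERBB3 in myelin-high minus remaining spots, and between fibre classes -0.0097 to 0.15 for ERBB2, reversed without section 1 of male batch 1, and -0.11 to 0.20 for ERBB3. For ERBB3 between fibre classes, the reversed values were -0.0066 and -0.05 without section 2 of female or male batch 1, -0.11 without section 3 of female batch 2 and -0.02 without section 1 of male batch 2. Requiring Moran's I of at least 0.1 left 4, 0 and 0 sections for NRG1, ERBB2 and ERBB3. Over shared symbols the log2 ratio of the *P. anubis*-labelled mean to male batch 1 was 0.18 for NRG1 (-0.07 over all features), -0.41 for ERBB2 (-0.67) and 3.85 for ERBB3 (3.59). Of 857 recomputed tests on named pathway genes, 752 kept the call, 101 lost it and 4 turned: ERRFI1 0.011 (upper 10%) and HRAS 0.20 (thinned) between fibre classes, MAPK3 0.39 (thinned) and ADAM19 0.12 (thinned after classing) for myelin-high minus remaining. Calls over all features moved by over 1.5 times: between batches 364 became 1279 with no filter, 4345 with sections as samples, 4448 with the replicate block, 674, 942 and 564 without section 1 or 4 of female batch 1 or section 1 of female batch 2, and 115 and 120 without section 1 or 2 of male batch 2, and between sexes 0 became 67, 8 and 5. For neuron-high minus remaining 3451 became 483 thinned, 798 thinned after classing, 2201 without neurofilament genes, 1496 without female batch 1 and 1997 without male batch 1. For myelin-high minus remaining 3670 became 650, 749, 1591 (minimum of 1000 UMIs), 1962 and 1844 without those specimens, for neuron-high minus myelin-high 5717 became 1632 and 1999 thinned, and for the fibre classes 3092 became 103 and 196 thinned, 1707 with DESeq2 and 1181 in the upper 10%. The causes were not tested. Too few counts left ERBB3 untested in all thinned fits and ERBB2 untested in the thinned fibre classes. Between fibre classes ERBB3 was also untested in the upper 10% and with sections as samples. It was untested there without male batch 1 and without section 3 of female batch 1. In the thinned fibre classes EGR2, RNF41, ERRFI1, NRG4, ADAM19, BACE1, NRDC, SHC1 and MAPK3 were untested too. In thinned neuron-high minus remaining spots DLG1, NRG4 and GAB1 were untested, and DLG1 in thinned myelin-high minus remaining spots. ADAM19 was untested in the latter when thinned before classing.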
